A study of Mus musculus with 19 samples.

Results

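Activity-dependent immediate early genes are a small set of genes whose transcription starts within minutes of synaptic input or growth factor signalling. The 10 followed here are Fos, Fosb, Fosl2, Junb, Egr1, Egr2, Nr4a1, Npas4, Arc and Dusp1, chosen by name, and their array probes were found through the RefSeq transcripts assigned to each gene. The 10 genes were chosen with earlier results of these data known. They are 10 of the 25599 genes tested, and 13 of 56605 probes, of which 11 were kept as bright enough to measure. Hippocampal RNA came from 3 groups of mice, all 8 months old, with 1 array per sample and 19 arrays in all. The first group was APP/PS1 mice given urolithin A (UA, n = 6), a gut bacterial metabolite of dietary ellagitannins, at 200 mg per kg per day. The second was APP/PS1 mice given the DMSO vehicle (n = 7), and the third was wild-type (WT) littermates given vehicle (n = 6). UA or vehicle was given by gavage from 6 to 8 months of age. APP/PS1 mice carry mutant human amyloid precursor protein and presenilin transgenes and deposit amyloid. In this strain both transgenes are driven by the mouse prion protein promoter, chiefly in neurons of the central nervous system. The study asked whether UA, described in its title through mitophagy, alters disease features in models of Alzheimer's disease. No source used here says how samples were taken beyond the group sizes, so each array was taken as 1 mouse, and p-values measure the spread between these arrays.

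When a neuron fires, calcium and kinase cascades phosphorylate CREB, which binds cAMP response elements (CRE), and the SRF and ternary complex factor pair, which binds CArG boxes. No new protein synthesis is needed for this first wave. Fos, Fosb, Fosl2 and Junb encode subunits of the dimeric AP-1 transcription factor, Egr1 and Egr2 are zinc finger factors, Nr4a1 is an orphan nuclear receptor, and Npas4 is a basic helix-loop-helix PAS factor induced selectively by neuronal depolarisation. Arc protein regulates AMPA receptor endocytosis at synapses, and Dusp1 is a phosphatase that inactivates MAP kinases. In the hippocampus these transcripts are short-lived and serve as markers of recently active neurons.

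The promoter sequences are shown because the levels of several members moved together from array to array, as described further on. RefSeq promoters of GRCm38.p6, from 250 bases before to 50 bases after a start site, were held for 8 of the 10 members, and Arc and Egr1 had no entry in the table. Motifs were searched on both strands: the CArG box, the full CRE (TGACGTCA), the CRE half-site (TGACG, or CGTCA on the other strand), the EGR site (GCGTGGGCG) and the AP-1 site (TGANTCA). A full CRE contains a half-site on each strand, and both were counted. Of the promoters, 6 are printed 5′ to 3′ on the gene's strand, with CArG boxes and CRE half-sites in capitals.
Fos, chr12:85473640-85473939, plus strand: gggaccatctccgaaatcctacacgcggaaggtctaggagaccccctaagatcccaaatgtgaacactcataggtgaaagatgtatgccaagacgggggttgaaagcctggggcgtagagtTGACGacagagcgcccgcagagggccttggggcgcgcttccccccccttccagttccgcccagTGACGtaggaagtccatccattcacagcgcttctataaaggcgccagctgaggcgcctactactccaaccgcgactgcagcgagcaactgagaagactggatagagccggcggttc
Junb, chr8:84978699-84978998, minus strand: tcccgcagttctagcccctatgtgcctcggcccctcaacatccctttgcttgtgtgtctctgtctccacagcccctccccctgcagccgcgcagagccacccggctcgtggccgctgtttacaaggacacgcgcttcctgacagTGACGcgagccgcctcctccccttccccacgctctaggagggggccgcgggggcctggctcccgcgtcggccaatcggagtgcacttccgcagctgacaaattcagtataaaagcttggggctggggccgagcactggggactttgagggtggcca
Dusp1, chr17:26508423-26508722, minus strand: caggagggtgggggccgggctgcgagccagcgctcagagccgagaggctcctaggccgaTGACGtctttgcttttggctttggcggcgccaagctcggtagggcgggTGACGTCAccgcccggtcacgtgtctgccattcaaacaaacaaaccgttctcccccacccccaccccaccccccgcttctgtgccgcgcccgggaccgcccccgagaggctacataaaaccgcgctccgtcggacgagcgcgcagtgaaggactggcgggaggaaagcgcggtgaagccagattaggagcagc
Npas4, chr19:4989922-4990221, minus strand: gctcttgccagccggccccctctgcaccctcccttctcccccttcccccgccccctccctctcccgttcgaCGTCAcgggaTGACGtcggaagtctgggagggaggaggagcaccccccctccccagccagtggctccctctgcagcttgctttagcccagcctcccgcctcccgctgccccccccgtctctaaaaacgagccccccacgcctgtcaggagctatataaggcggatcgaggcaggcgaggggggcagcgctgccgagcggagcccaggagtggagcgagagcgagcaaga
Nr4a1, chr15:101266596-101266895, plus strand: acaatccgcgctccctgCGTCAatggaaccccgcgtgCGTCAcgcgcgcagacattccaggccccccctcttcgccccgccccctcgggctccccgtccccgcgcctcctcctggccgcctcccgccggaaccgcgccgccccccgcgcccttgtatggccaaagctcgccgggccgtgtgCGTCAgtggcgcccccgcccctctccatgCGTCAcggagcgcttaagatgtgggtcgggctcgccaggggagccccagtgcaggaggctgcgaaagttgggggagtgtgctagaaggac
Egr2, chr10:67537619-67537918, plus strand: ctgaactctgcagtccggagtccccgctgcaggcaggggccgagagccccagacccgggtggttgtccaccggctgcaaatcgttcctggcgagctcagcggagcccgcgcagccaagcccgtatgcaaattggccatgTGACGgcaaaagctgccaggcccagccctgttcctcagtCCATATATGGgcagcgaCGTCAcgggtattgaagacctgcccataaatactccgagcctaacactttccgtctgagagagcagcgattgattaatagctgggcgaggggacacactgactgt

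A CRE half-site was present in the window of 7 of the 8 members, all but Fosl2, and 20.8% of the 32851 promoters in the table held one. Members are counted by gene, at any annotated start, while the shares are of single promoters, so the 2 are not alike in unit. Nr4a1 had 4 half-sites and Dusp1 had 3, those of its full CRE included, and Dusp1 alone among the 8 members searched had a full CRE, a sequence found in 1.79% of all promoters. Egr2 has 5 annotated starts, 4 of which had a CArG box, against 1.63% of all promoters, and 3 of those windows overlap and hold the same box and the same 2 half-sites, 1 of which is printed. None of the 8 members had an EGR site or an AP-1 site in these windows, where 0.612% and 7.81% of all promoters did. A match is a run of letters and not a measured binding site.

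A level here is the log2 green signal of a probe, processed by the scanner software, less the 75th percentile on the same array, so that 0 is the signal of a probe brighter than 75% of the array. Probes differ in brightness for the same amount of RNA, so levels are compared between groups for 1 gene and not between genes. The 75th percentile lay between 663 and 1776 intensity units over the 19 arrays, 51.4% to 59.4% of probes were well above background, and arrays correlated at 0.949 to 0.993 over genes. The UA arrays were split evenly between slides 2 and 3, with 3 on each. Of the APP/PS1 vehicle arrays 5 shared slide 2 with UA and 2 shared slide 1 with all 6 WT arrays, so that no slide carried both UA and WT. By Xist and Y-linked genes, females were 1 of 6 UA, 3 of 7 APP/PS1 vehicle and 1 of 6 WT mice. Prnp, the prion protein gene, served as a check of the genotype labels. It lay at 7.77 to 8.45 in UA and 7.93 to 8.36 in APP/PS1 vehicle arrays, against 6.14 to 6.49 in WT arrays. Whether its probe also reads transcripts of the transgenes, which use the prion protein promoter, was not examined. All 10 neuron, 8 dentate granule cell and 8 pyramidal cell markers were well above background on all 19 arrays.

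No member passed the test (limma, Benjamini-Hochberg adjusted p under 0.05 over all 25599 genes) in any of the 3 comparisons. In UA against APP/PS1 vehicle arrays the share of all genes that passed was 0% (3952 genes at an unadjusted p under 0.05), in APP/PS1 vehicle against WT it was 5.05%, and in UA against WT it was 0.0898%. In 1 alternative setting each, Npas4 passed in UA against APP/PS1 vehicle, Fosb in APP/PS1 vehicle against WT, and Fos and Nr4a1 in UA against WT. Short of that threshold the values ran mostly one way. Against APP/PS1 vehicle, 9 of the 10 members were below 0 in UA arrays, with a median log2 difference of -0.64, where 51.2% of all genes were below 0 and their median was -0.01. Against WT, all 10 were below 0 in UA arrays, with a median of -0.81, where 52.9% of all genes were below 0 and their median was -0.01. In APP/PS1 vehicle against WT, 8 of 10 were below 0 with a median of -0.28, where 48.6% of all genes were below 0. Each pair of these comparisons shares a group of arrays, so the 3 sets of values are not separate evidence. Several members also moved together from array to array, as described further on, and the 10 were chosen with earlier results of these data known. A count of members set beside a share of all genes is therefore not a count of separate results. RNA came from whole tissue, in which fewer cells of a type and less RNA per cell cannot be told apart.

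**Figure D1:**
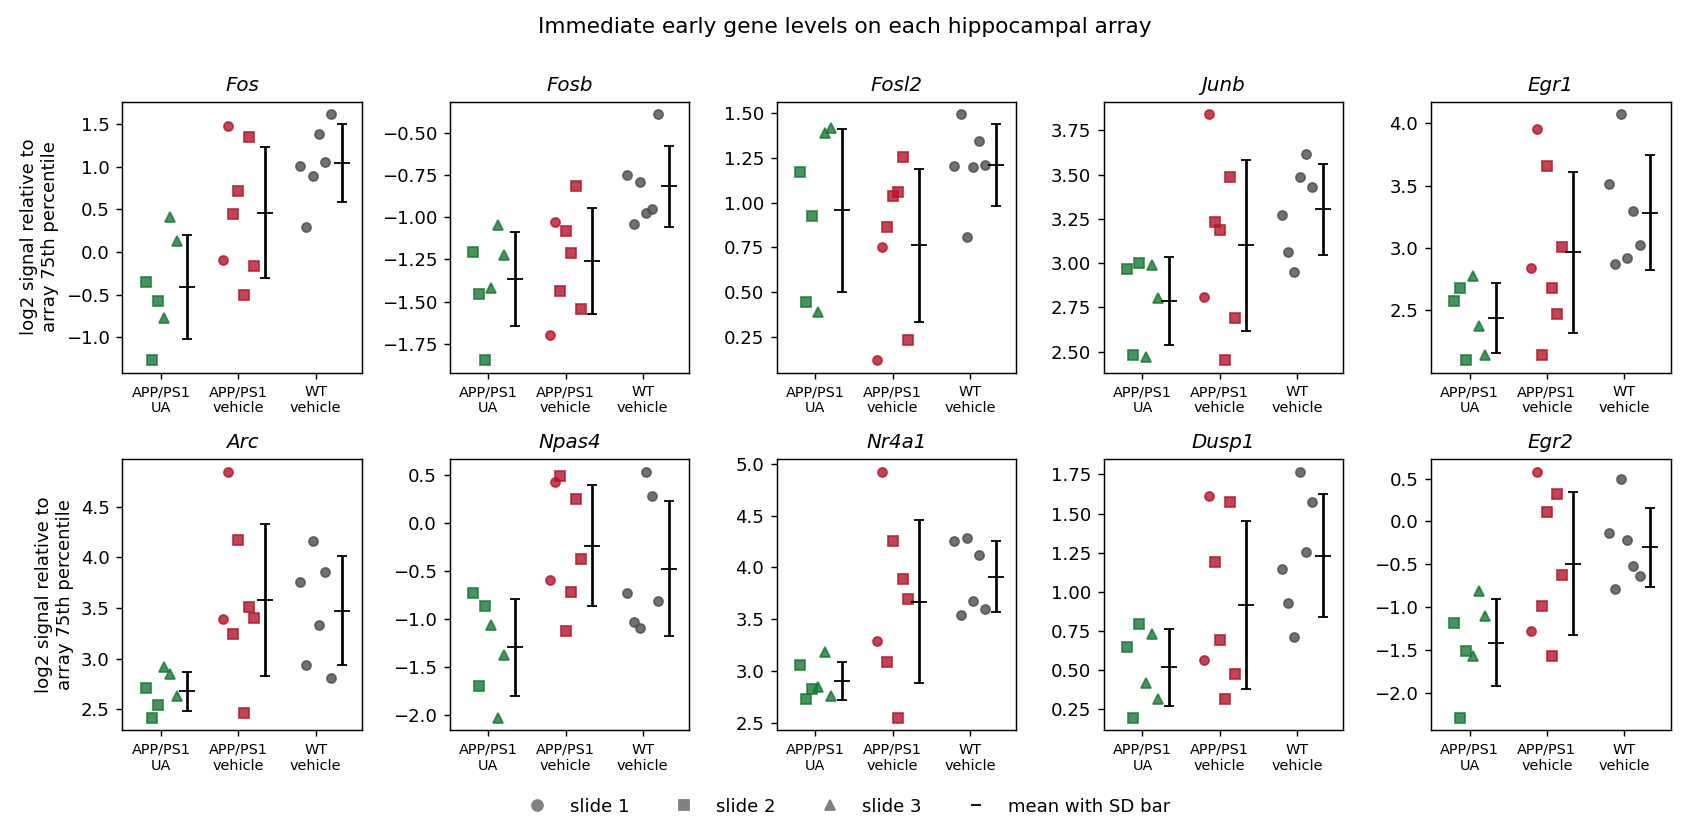
Level of each immediate early gene on every array (log2 signal relative to the array's 75th percentile), by group, with symbols for the 3 slides and the mean ± SD beside each group. UA arrays sit low and close together for Arc (2.42 to 2.92) and Nr4a1 (2.73 to 3.19), while APP/PS1 vehicle arrays span 2.47 to 4.85 and 2.55 to 4.93.

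Among the AP-1 subunits, Fos had the largest of the members' differences between UA and WT. Its lowest, median and highest levels were -1.27, -0.46 and 0.41 in UA arrays, -0.50, 0.45 and 1.48 in APP/PS1 vehicle arrays, and 0.29, 1.03 and 1.62 in WT arrays. All 6 UA arrays lay below the mean of either vehicle group, and 5 of 6 lay below the lowest WT array. The log2 difference was -0.87 (SE 0.33, 1.83-fold) in UA against APP/PS1 vehicle, with a limma adjusted p of 0.232. In UA against WT it was -1.45 (SE 0.34, 2.72-fold, adjusted p 0.140), and in APP/PS1 vehicle against WT it was -0.58 (SE 0.33, adjusted p 0.293).

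Fosb, whose truncated product ΔFosB is known to accumulate with repeated activity, had its larger differences against WT, none of which passed. It lay at -1.85, -1.32 and -1.04 (lowest, median, highest) in UA arrays, -1.70, -1.21 and -0.82 in APP/PS1 vehicle arrays and -1.04, -0.87 and -0.39 in WT arrays. Every UA array was below every WT array, by a narrow margin, while UA and APP/PS1 vehicle arrays overlapped over most of their range. The log2 difference was -0.44 (SE 0.15, adjusted p 0.0908) in APP/PS1 vehicle against WT, the smallest adjusted p of any member in that comparison. It was -0.55 (SE 0.16, adjusted p 0.304) in UA against WT and -0.11 (SE 0.15, adjusted p 0.754) in UA against APP/PS1 vehicle, where it ran from -0.18 without APP/PS1 vehicle replicate 1 to -0.01 without UA replicate 3. Which Fosb transcripts the probe detects was not examined, and a further Fosb probe was above background on 0 of 19 arrays.

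Fosl2, which encodes the AP-1 subunit Fra-2, was the member with a positive value in UA against APP/PS1 vehicle. It lay at 0.39, 1.05 and 1.42 in UA arrays, 0.12, 0.86 and 1.26 in APP/PS1 vehicle arrays, and 0.81, 1.21 and 1.498 in WT arrays. Its log2 differences were 0.20 (SE 0.21, adjusted p 0.658) for UA against APP/PS1 vehicle, -0.45 (SE 0.21, adjusted p 0.194) for APP/PS1 vehicle against WT and -0.25 (SE 0.21, adjusted p 0.751) for UA against WT. Within slide 2, UA minus APP/PS1 vehicle was -0.04, so its sign there was not stable, and it was 0.09 without APP/PS1 vehicle replicate 1 and 0.31 without UA replicate 4. A further Fosl2 probe was above background on 1 UA, 0 APP/PS1 vehicle and 2 WT arrays and was not used.

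Junb, the JUN partner in the set, had levels of 2.47, 2.88 and 3.004 in UA arrays, 2.45, 3.19 and 3.84 in APP/PS1 vehicle arrays, and 2.95, 3.35 and 3.62 in WT arrays. The UA arrays reached down to the lowest APP/PS1 vehicle arrays, and the groups overlapped. Its log2 difference was -0.31 (SE 0.19, adjusted p 0.428) in UA against APP/PS1 vehicle and -0.52 (SE 0.20, adjusted p 0.487) in UA against WT. A dimmer Junb probe, above background on all 19 arrays, had the same signs, with -0.50 (SE 0.16, adjusted p 0.195) and -0.81 (SE 0.17, adjusted p 0.0664). Over arrays its levels correlated with those of the brighter probe at 0.877, with the group means left in.

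Among the factors that act outside AP-1, Npas4 had the largest difference of the members between UA and APP/PS1 vehicle. Its lowest, median and highest levels were -2.03, -1.22 and -0.73 in UA arrays, -1.12, -0.38 and 0.49 in APP/PS1 vehicle arrays, and -1.10, -0.77 and 0.54 in WT arrays. All UA arrays lay below the APP/PS1 vehicle mean and 3 of 6 below its lowest array, while WT arrays were scattered across the range of the vehicle-treated APP/PS1 arrays. The difference from APP/PS1 vehicle was -1.06 (SE 0.32, 2.08-fold) with an adjusted p of 0.167 and an unadjusted limma p of 0.00425. Against WT it was -0.82 (SE 0.34, adjusted p 0.523), and APP/PS1 vehicle minus WT was 0.24 (SE 0.32, adjusted p 0.671).

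Egr1, an early marker of hippocampal plasticity, had levels of 2.10, 2.48 and 2.77 in UA arrays, 2.14, 2.84 and 3.96 in APP/PS1 vehicle arrays, and 2.87, 3.16 and 4.08 in WT arrays. No UA array reached the lowest WT array, and the APP/PS1 vehicle arrays overlapped both groups. Its differences were -0.52 (SE 0.26, adjusted p 0.342) in UA against APP/PS1 vehicle, -0.32 (SE 0.26, adjusted p 0.465) in APP/PS1 vehicle against WT and -0.84 (SE 0.27, adjusted p 0.388) in UA against WT.

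Egr2, a related factor in the same family, lay at -2.29, -1.35 and -0.82 in UA arrays, -1.57, -0.63 and 0.58 in APP/PS1 vehicle arrays and -0.79, -0.37 and 0.49 in WT arrays. All UA arrays lay below all WT arrays. UA minus APP/PS1 vehicle was -0.92 (SE 0.34, adjusted p 0.218), UA minus WT was -1.11 (SE 0.35, adjusted p 0.371) and APP/PS1 vehicle minus WT was -0.19 (SE 0.34, adjusted p 0.753).

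Nr4a1, which is induced in neurons by calcium entry, showed a tight UA group. Its lowest, median and highest levels were 2.73, 2.84 and 3.19 in UA arrays, 2.55, 3.70 and 4.93 in APP/PS1 vehicle arrays and 3.54, 3.89 and 4.29 in WT arrays. UA and WT arrays did not overlap, while the APP/PS1 vehicle arrays reached beyond both. The difference was -0.77 (SE 0.28, adjusted p 0.217) in UA against APP/PS1 vehicle and -1.01 (SE 0.29, 2.01-fold, adjusted p 0.304) in UA against WT, and APP/PS1 vehicle minus WT was -0.24 (SE 0.28, adjusted p 0.614).

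The effectors were Arc and Dusp1. Arc lay at 2.42, 2.67 and 2.92 in UA arrays, 2.47, 3.40 and 4.85 in APP/PS1 vehicle arrays and 2.81, 3.54 and 4.16 in WT arrays. UA arrays were clustered near the low end of both vehicle groups. The log2 difference was -0.90 (SE 0.29, 1.86-fold, adjusted p 0.189) in UA against APP/PS1 vehicle and -0.80 (SE 0.31, adjusted p 0.487) in UA against WT, and APP/PS1 vehicle minus WT was 0.10 (SE 0.29, adjusted p 0.851). Dusp1 lay at 0.20, 0.53 and 0.80 in UA arrays, 0.31, 0.69 and 1.61 in APP/PS1 vehicle arrays and 0.71, 1.20 and 1.77 in WT arrays, with overlapping groups. Its differences were -0.40 (SE 0.22, adjusted p 0.388) in UA against APP/PS1 vehicle, -0.31 (SE 0.22, adjusted p 0.391) in APP/PS1 vehicle against WT and -0.71 (SE 0.23, adjusted p 0.388) in UA against WT.

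**Figure D2:**
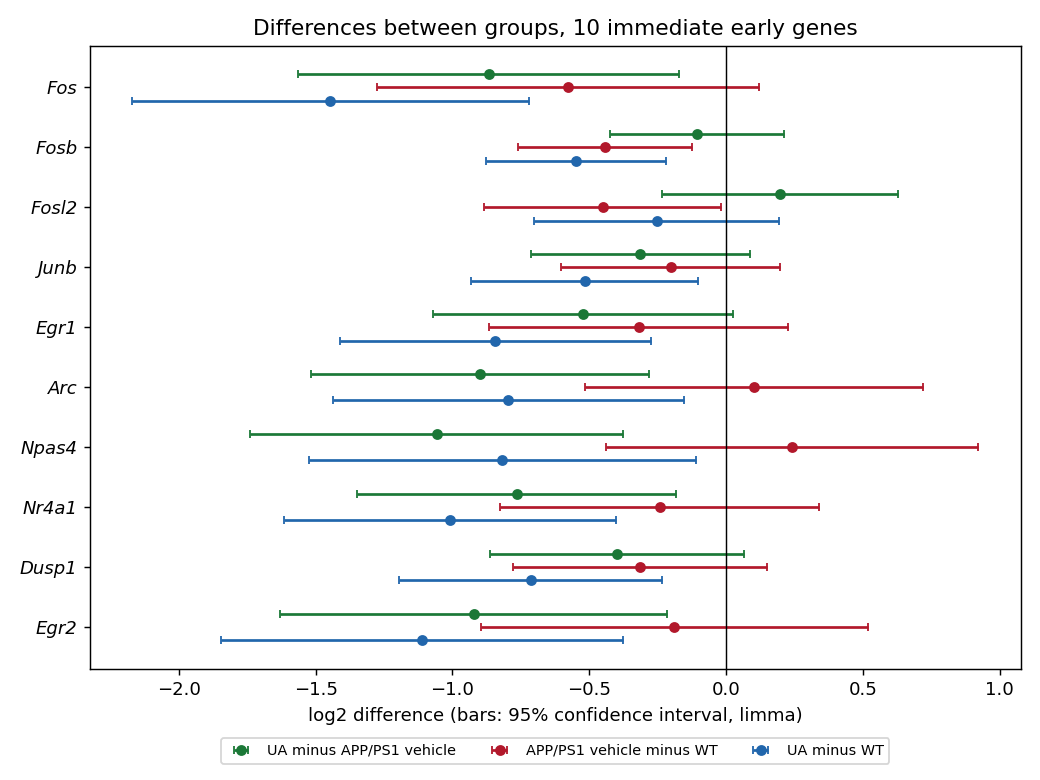
Log2 difference of each member between groups with its 95% confidence interval from limma, for UA minus APP/PS1 vehicle, APP/PS1 vehicle minus WT, and UA minus WT. All 10 values of UA minus WT lie left of 0, from -1.45 for Fos to -0.25 for Fosl2, and none passed the adjusted threshold.

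Counted without adjustment, 5 members had a limma p under 0.05 in UA against APP/PS1 vehicle, namely Fos, Arc, Npas4, Nr4a1 and Egr2, all lower in UA, where 9.26% of all genes were lower at that p. In UA against WT all members but Fosl2 did, where 4.14% of all genes were lower at that p, and in APP/PS1 vehicle against WT Fosb and Fosl2 did, where 11.8% of all genes were lower. For 8 members every UA array lay below the APP/PS1 vehicle mean, which was so for 12.9% of all genes. All 6 UA arrays lay below the WT mean for 9 members, where 8.34% of all genes did so, and all 7 APP/PS1 vehicle arrays lay below the WT mean for Fosb, where 9.01% did. UA and WT arrays did not overlap for Fosb, Egr1, Nr4a1 and Egr2, all 4 lower in UA, and 0.477% of all genes were lower without overlap. UA and APP/PS1 vehicle arrays overlapped for all 10 members, where 0.543% of all genes were lower without overlap. APP/PS1 vehicle and WT arrays also overlapped for all 10, where 0.844% of all genes were lower without overlap. Since several members moved together over arrays, these counts too are not counts of separate results.

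Several values changed when slide was taken into account, and slide and group were partly confounded. Whether slide caused the changes was not tested. Within slide 2, with 3 UA and 5 APP/PS1 vehicle arrays, UA minus APP/PS1 vehicle was -1.10 for Fos, -1.12 for Egr2, -0.80 for Arc, -0.80 for Npas4 and -0.62 for Nr4a1, with an adjusted p of 0.900 for each. Since no slide held both UA and WT, that comparison could be linked only through APP/PS1 vehicle arrays. With slide as a block in the fit, UA minus WT was -1.45 for Fos (SE 0.65) and -1.16 for Egr2 (SE 0.68), with an adjusted p of 0.950 for each. It was -0.16 for Arc (SE 0.56), -0.23 for Egr1 (SE 0.51), -0.43 for Nr4a1 (SE 0.54) and -0.41 for Npas4 (SE 0.66), all smaller by over 1.5 times than without the block, as were Junb at -0.17 and Dusp1 at -0.45. Fosb at -0.83 and Fosl2 at -0.82 were larger by over 1.5 times. Within slide 1, where 2 APP/PS1 vehicle arrays stood beside 6 WT arrays, APP/PS1 vehicle minus WT was 0.64 for Arc (SE 0.46) and -0.78 for Fosl2 (SE 0.21), and the values of Junb, Egr1 and Nr4a1 were above 0 (0.02, 0.11 and 0.19).

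The SD of the APP/PS1 vehicle group was larger than that of UA arrays for 9 of 10 members, and the median ratio of UA to APP/PS1 vehicle SD was 0.565, where 29.8% of all genes had the larger SD in UA and the median ratio was 0.778. Against WT it was larger for 9 of 10 members too, with a median ratio of 1.54, where 69.0% of all genes had the larger SD in APP/PS1 vehicle. The exception was Npas4, with an SD of 0.63 in APP/PS1 vehicle arrays and 0.70 in WT arrays. For Nr4a1 the SD was 0.18 in UA arrays and 0.79 in APP/PS1 vehicle arrays. For Arc it was 0.19 in UA arrays and 0.75 in APP/PS1 vehicle arrays. APP/PS1 vehicle replicate 2 was the highest of the 19 arrays for Junb, Arc, Nr4a1 and Egr2, and UA replicate 2 was the lowest for Fos, Arc, Dusp1 and Egr2. Without APP/PS1 vehicle replicate 2, its group's SD was larger than that of UA for all 10 members, where this held for 71.3% of all genes. Without that array UA minus APP/PS1 vehicle was -0.19 for Junb, -0.36 for Egr1, -0.69 for Arc and -0.56 for Nr4a1. These spreads were not tested.

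Several members, though not all, moved together from array to array. Correlations were computed over the 19 arrays on deviations from the group means, so that a difference between groups could not make them, and p-values came from 100000 permutations of arrays within groups, adjusted over the 45 pairs. Of the 45 pairs, 40 had a Pearson r above 0 and the median r was 0.45 (Spearman 0.35). The permutation test passed 11 pairs, all positive, and the same 11 passed with Spearman's rho. For each pair, the 2 arrays farthest from the median deviation of the gene listed first were then left out, whatever the other gene's values. Each of the 11 kept an r over 0.5.

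**Figure D3:**
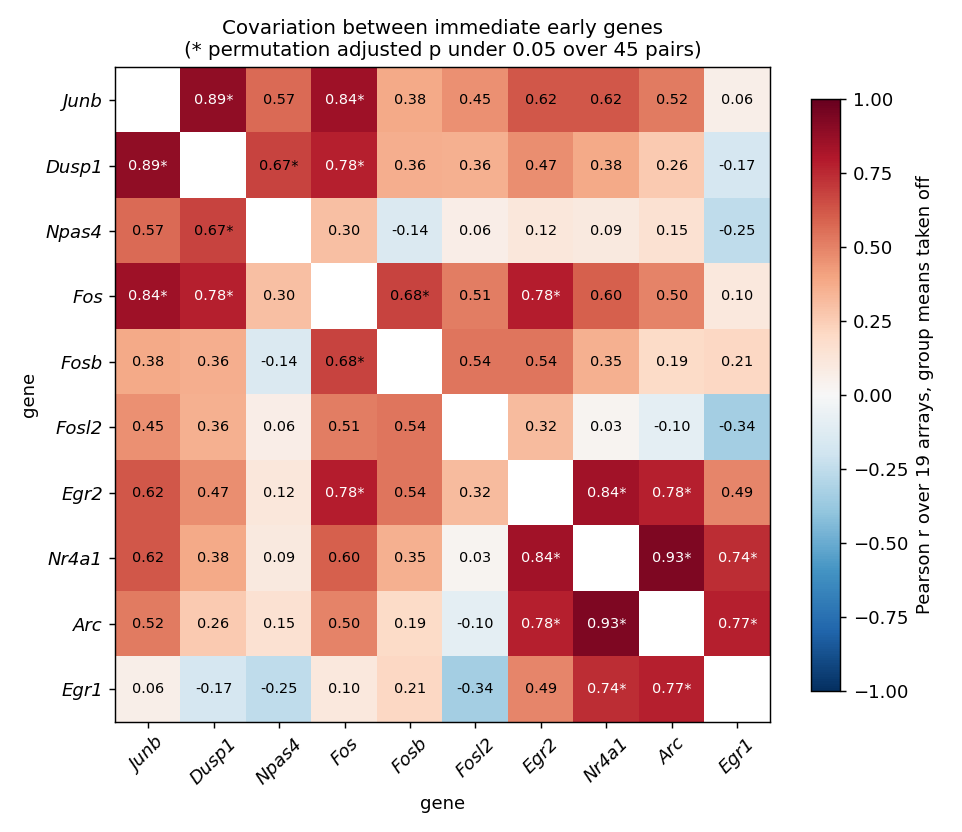
Pearson r between each pair of members over 19 arrays, on log2 deviations from group means; asterisks mark the 11 pairs with a permutation adjusted p under 0.05. Warm blocks join Junb, Dusp1 and Fos, and Egr2, Nr4a1, Arc and Egr1, while Egr1 with Dusp1 has r = -0.17.

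Arc and Nr4a1 were the closest pair, with r = 0.93 and rho = 0.91 (permutation p 1e-05, the smallest these permutations can give, adjusted p 0.00045). Their r was 0.60 within the UA arrays, 0.97 within APP/PS1 vehicle and 0.94 within WT. It was 0.84 without the 2 arrays farthest from the median deviation of Arc. Junb and Dusp1 followed, with r = 0.89, rho = 0.89 and an adjusted permutation p of 0.000675. They kept r at 0.83 in UA, 0.94 in APP/PS1 vehicle and 0.80 in WT. The other pairs that passed were Fos with Junb (0.84), Nr4a1 with Egr2 (0.84), Fos with Egr2 (0.78), Fos with Dusp1 (0.78), Arc with Egr2 (0.78), Egr1 with Arc (0.77), Egr1 with Nr4a1 (0.74), Fos with Fosb (0.68) and Npas4 with Dusp1 (0.67). Fos and Egr2 formed the 1 passing pair between Fos, Junb, Dusp1 and Npas4 on one side and Arc, Nr4a1, Egr1 and Egr2 on the other, a grouping seen in these same values.

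**Figure D4:**
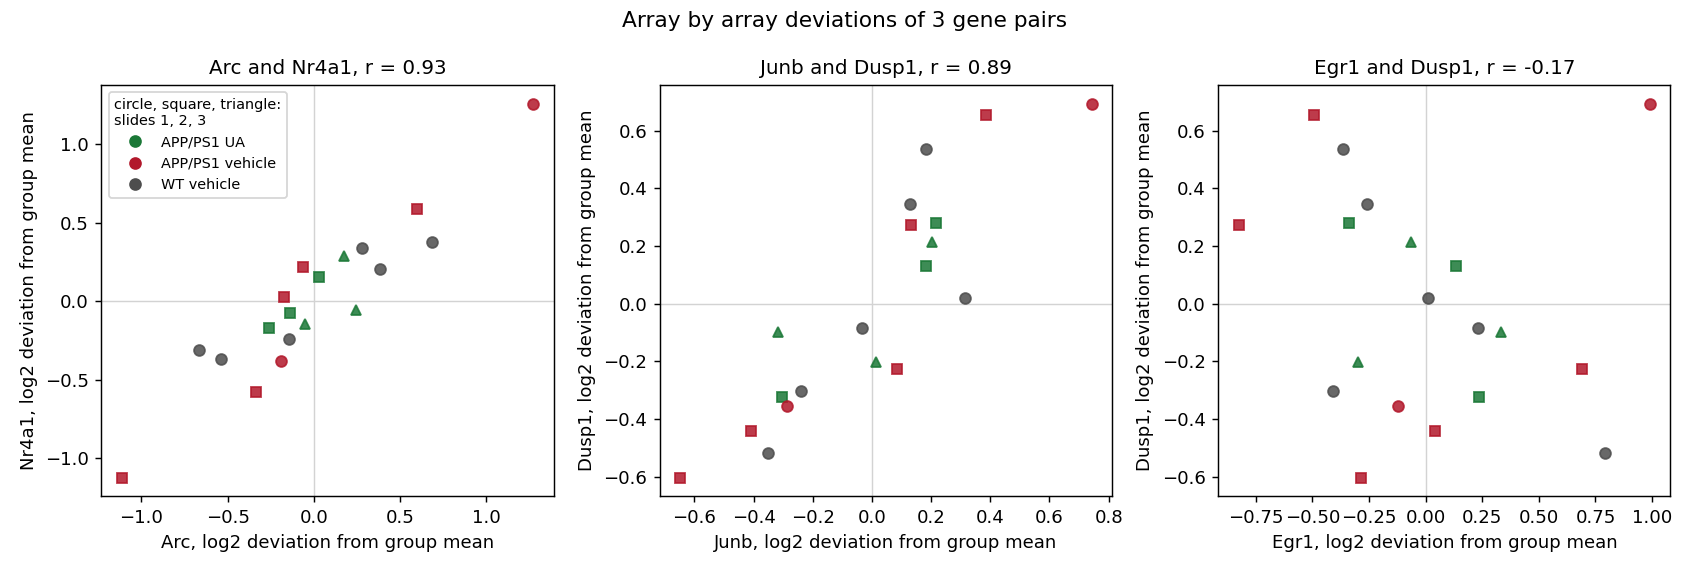
Deviation of each array from its group mean (log2) for Arc with Nr4a1, Junb with Dusp1, and Egr1 with Dusp1, coloured by group with symbols by slide. The first 2 pairs lie along a line (r = 0.93 and 0.89), and the third does not (r = -0.17).

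Egr1 passed with Arc and Nr4a1 and with no other member. Among the AP-1 genes its r was 0.21 with Fosb, 0.10 with Fos, 0.06 with Junb and -0.34 with Fosl2, and beyond them it was 0.49 with Egr2, -0.17 with Dusp1 and -0.25 with Npas4. Fosl2 had 0 passing pairs of 9, and its r ran from -0.34 to 0.54. Against the mean of the other 9 members, Fos had r = 0.87, Junb 0.84 and Egr2 0.84, and no gene outside the set had a higher r with the same mean. Npas4 (0.24), Egr1 (0.25) and Fosl2 (0.29) had the lowest values of the 10, which still exceeded those of 92.0%, 90.6% and 94.4% of other genes with the same means. Differences between correlations were not tested.

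The median r over pairs was 0.43 within UA arrays, 0.60 within APP/PS1 vehicle and -0.02 within WT, where 22 of 45 pairs were above 0. It was 0.44 within slide 1, 0.47 within slide 2 and 0.48 with both group and slide means taken off. Without the 2 arrays farthest from the median deviation of the gene listed first in each pair it was 0.20. Without APP/PS1 vehicle replicate 2 it was 0.32.

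The genes outside the set that followed it most closely, by r with the mean of the members' standardised deviations over 19 arrays, were Naa60 (0.80), Sik1 (0.80), Arid5a (0.78), Ccl2 (0.73), Supt20 (0.73), Zscan20 (0.71), Per1 (0.71) and Krt19 (0.69). Several were dim, with mean levels of -4.33 for Supt20, -3.47 for Krt19, -2.31 for Zscan20 and -2.07 for Sik1. Naa60, which encodes an N-terminal acetyltransferase, was lower in APP/PS1 vehicle arrays than in WT arrays (log2 -0.24, adjusted p 0.0205), and the other 7 passed in no comparison. Sik1 is a CREB-induced kinase that represses the CREB coactivators, Per1 is a clock gene with CRE-driven induction, and Ccl2 is a chemokine. Among the 100 named genes with the highest r, 6 of 24 other immediate early transcription factors were found (Per1, Klf2, Egr4, Nab2, Maff and Klf4) and 7 of 36 measured effectors (Sik1, Ccn1, Ier3, Ier2, Plk3, Trib1 and Dusp6). Of 17 measured glucocorticoid-induced genes 1 was there, Per1, which is on both lists, and of 40 upstream kinases, sensors and transcription factors 0 were there. The median r was 0.19 for the other immediate early transcription factors (21 of 24 above 0), 0.14 for the effectors (30 of 36), 0.17 for the glucocorticoid-induced genes (15 of 17) and -0.04 for the upstream list (17 of 40). The median r over all 16023 named genes outside the set was -0.01. These 100, and the genes named first, were taken from them after some were set aside. Those set aside were symbols that contain Rik or begin with Gm or LOC, genes on chromosome Y, Xist and Tsix.

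**Figure D5:**
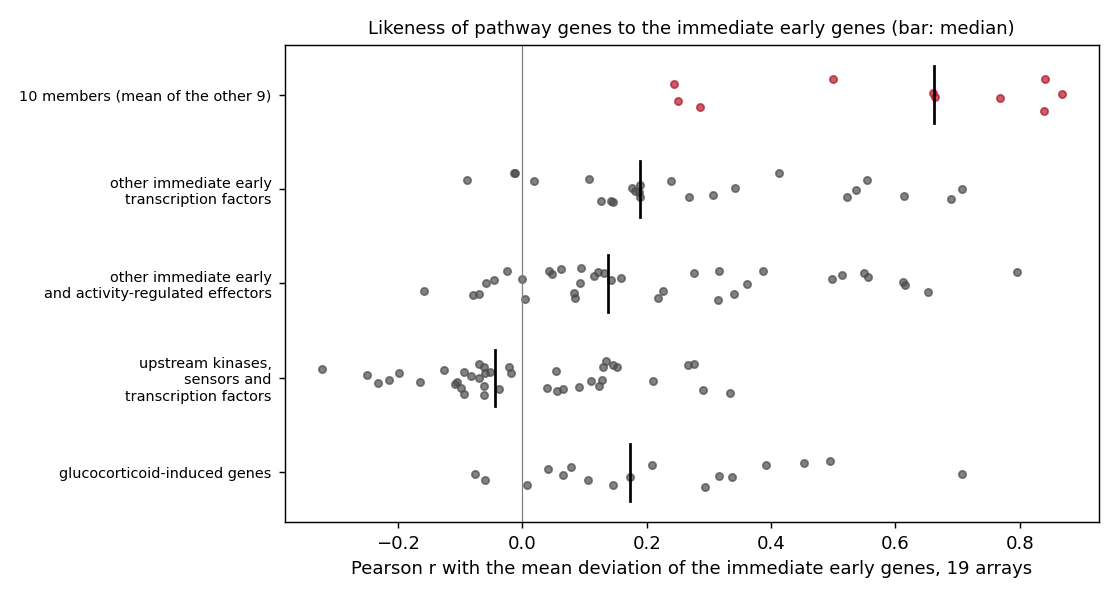
Pearson r over 19 arrays between each gene and the mean deviation of the immediate early genes, with 1 point a gene and a bar at each list's median. The members are set against the mean of the other 9; the effectors reach 0.80 (Sik1), and the upstream list centres on -0.04.

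Few pathway genes beyond the members passed the test, and none did in UA against APP/PS1 vehicle or in UA against WT. Those that passed were 1 effector and 1 upstream gene higher, and 1 of each lower, in APP/PS1 vehicle against WT. There, 5.05% of all genes passed. In UA against APP/PS1 vehicle the unadjusted limma p was under 0.05 for 4 of the transcription factors, 4 effectors, 2 upstream genes and 2 glucocorticoid-induced genes, where 15.4% of all genes were. In UA against WT it was so for 5, 7, 1 and 2 of the same lists, where 8.65% of all genes were. For APP/PS1 vehicle against WT the counts were 3, 4, 10 and 2, where 23.7% of all genes were. The lists hold 24, 37, 40 and 18 tested genes. In each list the 4 genes of smallest p are named for each comparison, with the log2 difference and then the adjusted p in parentheses. Of 24 other immediate early transcription factors 0 passed in any comparison, and 16 were below 0 in UA against APP/PS1 vehicle (median -0.08), 16 in APP/PS1 vehicle against WT (median -0.10) and 19 in UA against WT (median -0.18). In UA against APP/PS1 vehicle these were Nab2, a corepressor of EGR factors (-0.27, adjusted p 0.208), Jund (0.16, 0.271), Egr4 (-0.36, 0.300) and Atf3 (-0.25, 0.309). Against WT, UA arrays gave Klf2 (-0.59, 0.452), Per1 (-0.42, 0.479), the circadian repressor gene Bhlhe40 (-0.25, 0.493) and Egr4 (-0.44, 0.496). In APP/PS1 vehicle against WT they were Atf3 (0.34, 0.0831), Klf10 (-0.41, 0.175), Jund (-0.15, 0.207) and Nr4a2 (-0.52, 0.217).

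Of 37 other activity-regulated effectors, 24 were below 0 in UA against APP/PS1 vehicle (median -0.08), 25 in APP/PS1 vehicle against WT (median -0.08) and 28 in UA against WT (median -0.14). Plk2, a kinase of synaptic scaling, was higher in APP/PS1 vehicle than WT by 1.47-fold (log2 0.56, SE 0.13, adjusted p 0.0242), and UA minus APP/PS1 vehicle for Plk2 was -0.55 (SE 0.13, adjusted p 0.113). Vgf, a secreted neuropeptide precursor, was lower in APP/PS1 vehicle by 1.42-fold (log2 -0.50, SE 0.14, adjusted p 0.0462). The other effectors named there were Cort, encoding the interneuron peptide cortistatin (-0.58, adjusted p 0.0607), and the prohormone convertase gene Pcsk1 (-0.83, 0.134). In UA against APP/PS1 vehicle, Dusp6, a phosphatase for ERK (-0.33, 0.226), the related Dusp5 (-0.49, 0.239) and Pcsk1 (0.72, 0.296) followed Plk2. In UA against WT they were Dusp6 (-0.43, 0.337), Rasl11b (-0.24, 0.461), Arl4d (-0.66, 0.497) and Vgf (-0.37, 0.504).

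Of 40 upstream kinases, sensors and transcription factors, 14 were below 0 in UA against APP/PS1 vehicle (median 0.06), 31 in APP/PS1 vehicle against WT (median -0.13) and 29 in UA against WT (median -0.07). Elk3, a ternary complex factor, was higher in APP/PS1 vehicle than WT by 1.36-fold (adjusted p 0.0324), and Prkaca, a catalytic subunit of protein kinase A, was lower by 1.21-fold (adjusted p 0.0448). The calcium-dependent kinase gene Camk4 (-0.35, 0.0607) and the calcineurin subunit gene Ppp3cb (-0.20, 0.0897) followed. In UA against APP/PS1 vehicle they were Camk2a (-0.36, 0.216), Camk4 (0.27, 0.243), Ppp3cb (0.14, 0.327) and Elk1 (-0.37, 0.342). In UA against WT they were the NMDA receptor subunit gene Grin1 (-0.28, 0.375), Elk3 (0.23, 0.602), Map2k1 (-0.21, 0.608) and Elk1 (-0.34, 0.636).

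Glucocorticoid-induced genes were listed because stress hormones also drive genes such as Per1. Of 18, 0 passed in any comparison, with medians of -0.05 in UA against APP/PS1 vehicle, -0.14 in APP/PS1 vehicle against WT and -0.04 in UA against WT. In UA against APP/PS1 vehicle the 4 were Zbtb16 (0.43, adjusted p 0.198), Fkbp5, a chaperone of the glucocorticoid receptor (0.20, 0.284), Ddit4 (-0.24, 0.337) and Map3k6 (0.28, 0.402). In APP/PS1 vehicle against WT they were Fkbp5 (-0.25, 0.1001), Zbtb16 (-0.41, 0.104), Tsc22d3 (-0.24, 0.244) and Mt1 (0.17, 0.303). In UA against WT they were Ddit4 (-0.40, 0.345), Per1 (-0.42, 0.479), Mt2 (0.28, 0.587) and Errfi1 (-0.26, 0.612).

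Markers of other cells differed between groups beside these values. Of all genes, 0% passed the test in UA against APP/PS1 vehicle, 5.05% in APP/PS1 vehicle against WT and 0.0898% in UA against WT. At an unadjusted limma p under 0.05 the shares of all genes were 15.4%, 23.7% and 8.65%, in the same order. The summed level of 10 microglia markers was 5.55 to 6.07 (log2) in UA arrays, 6.01 to 6.30 in APP/PS1 vehicle arrays and 5.18 to 5.55 in WT arrays, and 8 of the 10 passed the limma test as higher in APP/PS1 vehicle against WT. Between UA and APP/PS1 vehicle 9 of the 10 microglia markers were below 0 (median -0.24), 7 of them at an unadjusted p under 0.05 and 0 after adjustment. Of 8 astrocyte markers, all were above 0 in UA against WT (0 called, 4 at an unadjusted p under 0.05) and in APP/PS1 vehicle against WT, where 3 were called. The summed level of 10 neuron markers was 8.70 to 9.05 in UA arrays, 8.55 to 8.90 in APP/PS1 vehicle arrays and 8.79 to 9.22 in WT arrays, with 0 called in any comparison (0, 6 and 1 at an unadjusted limma p under 0.05 in UA against APP/PS1 vehicle, APP/PS1 vehicle against WT, and UA against WT), 10 of 10 above 0 in UA against APP/PS1 vehicle and 9 of 10 below 0 in APP/PS1 vehicle against WT. The summed level of 10 choroid plexus markers was 4.09 to 9.60 (median 9.14) in UA arrays, 3.07 to 10.2 (median 9.02) in APP/PS1 vehicle arrays and 4.20 to 9.84 (median 4.89) in WT arrays. All 10 were above 0 in UA against WT and in APP/PS1 vehicle against WT, with median log2 differences of 1.59 and 1.69, and 0 passed the test, adjusted or not. Over arrays, the members' mean deviation had r = -0.05 with the neuron sum, -0.30 with the microglia sum and 0.15 with the choroid plexus sum. It had r = -0.30 with the pyramidal cell sum, -0.18 with the dentate granule cell sum and 0.27 with the vessel sum. The remaining marker sums lay between -0.14 (oligodendrocyte) and 0.12 (neocortex). The part of these cells in the members' differences was not tested.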

How the data were processed

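RNA from 19 hippocampi was labelled with Cy3 from 200 ng of total RNA, per the labels' protocols. Each deposited scanner file gives intensity per spot, extracted with Agilent Feature Extraction 12.0.3.1, per the file headers, with the green signal background-subtracted and dye-normalized within each array. The labels describe no red sample, although the extraction protocol also measured a red channel. Red intensities were not analysed here, but the software's dye normalization of the green signal may have drawn on them. The authors' deposited values are a score: the log10 green intensity of each array, centred and divided by its SD, matched to within 0.005. The column medians of that deposited score lay between -0.28 and -0.17.

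Spots of a probe were averaged, and probes well above background on at least 6 arrays were kept (33450 of 56605). Accessions were named through RefSeq genes of GRCm38.p6 (32994 probes, 22911 symbols), and the probe brightest on average stood for a gene. Groups were compared in 1 limma 3.58.1 fit (R 4.3.3, data.table, version 1.17.8) of log2 signal over all 19 arrays, 2-sided, with Benjamini-Hochberg adjustment over 25599 genes, of which 16103 had a symbol. The members, gene lists and named-gene rule (all members, Prnp, the 4 genes of smallest p in each companion list, and the 8 genes most like the members) were chosen with earlier results of these data known. Correlations used Python, numpy and scipy, and both statistics were tested on simulated data. The alternatives covered background correction (on the median green signal, since a mean green signal was not used here), scaling, filters, slide, sex, probe choice and left-out arrays. Replicate numbers did not pair samples: over 18 same-numbered pairs the correlation of deviations ran from -0.55 to 0.39. The number of arrays limits the precision.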

Additional observations from a re-analysis of the deposited data

How the results depend on the processing

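No member was called with any 1 array left out, in any comparison, and the members kept the sign and the side of the threshold in 137 of 140 values over 14 other settings for UA against APP/PS1 vehicle, 131 of 140 for APP/PS1 vehicle against WT and 128 of 130 over 13 settings for UA against WT. Some settings, such as fitting only the groups compared, left the difference itself as it was, so its sign could not change. A fixed slide block and the fit within 1 slide gave the same differences. These values are therefore not separate checks. The members called were 1 in UA against APP/PS1 vehicle with normexp background correction (Npas4, adjusted p 0.0425), 1 in APP/PS1 vehicle against WT with sex as a covariate (Fosb, 0.0479), 1 in UA against WT with slide as a random block (Fos, 0.0444) and 1 in UA against WT with only those groups fitted (Nr4a1, 0.0336); over all alternatives the adjusted p ran from 0.0425 to 0.900 for Npas4, 0.0479 to 0.311 for Fosb, 0.0444 to 0.950 for Fos and 0.0336 to 0.950 for Nr4a1 in those comparisons. With normexp, which also replaced the processed signal by the median green signal and its background, 1620 genes were called in UA against APP/PS1 vehicle, against 0 without it (3952 at an unadjusted p under 0.05). For the random block the estimated correlation within slides was -0.043, below 0. With slide as a fixed block the limma adjusted p of Fos in UA against WT was 0.950. The cause of these changes was not tested.

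With slide as a fixed block and within 1 slide the sign turned for Fosl2 in UA against APP/PS1 vehicle (-0.043), and for Junb (0.024), Egr1 (0.11) and Nr4a1 (0.19) in APP/PS1 vehicle against WT. Scaled to neuron markers, a setting chosen after seeing the data that shifted all genes alike and put their median at 0.24 there, Junb was 0.030 and Egr2 0.044, while Fosb was -0.21 (adjusted p 0.311), Fosl2 -0.22 and Fos -0.34. Arc in APP/PS1 vehicle against WT ran from -0.11 to 0.29 over left-out arrays, and was below 0 without APP/PS1 vehicle replicate 2 (-0.11), WT replicate 2 (-0.0048) or WT replicate 6 (-0.030). The median correlation between members ran from 0.32 to 0.49 over left-out arrays.

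The 1294 genes called in APP/PS1 vehicle against WT were 353 with no filter, 77 with slide as a fixed block, 2229 as a random block, 23 within slide 1, 1986 with sex, 233 in males, 426 with those groups alone, 804 in the deposited table and 4376 scaled to neuron markers, and 391 (without WT replicate 6) to 2266 (without WT replicate 3) over left-out arrays. The 23 called in UA against WT were 14 with normexp, 4 and 99 with slide as a fixed and a random block, 8 in males and 65 scaled to neuron markers. With the replicate number as a block, 346 genes were called in APP/PS1 vehicle against WT, 12 in UA against WT and 0 in UA against APP/PS1 vehicle, with 0 members called in each. No slide held both UA and WT, so no within-slide value was possible for that comparison. Of 2 dim probes, those of Fosl2 and Fosb, no level was used.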
